A study of Mus musculus with 6 samples.

Results

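Translation is one of the processes that the kinase complex mTORC1 controls. The genes described here encode proteins that mTORC1, or the S6 kinases it switches on, phosphorylate, together with the factors those proteins act on. They are Rps6kb2, Eif4ebp1, Eif4ebp2, Eif4e, Eif4g1, Eif4b, Eef2k, Pdcd4 and Grb10. A gene was measured where a probe set, a group of array probes read as 1 value, named it as its sole gene, and the probe set with the highest mean over the 6 arrays was used. This found 8 of the 9 genes, each with 1 probe set, out of 30142 genes measured in all. Eif4g1, the scaffold of the cap-binding complex, has no probe set named for it in the platform table and is not analysed here. Grb10 differs from the others in role, since it acts on insulin receptor signalling and not on the ribosome.

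The arrays measured RNA of the epidermis of E18.5 mouse embryos, an age just before birth. The 3 Rptor cKO arrays came from embryos with a conditional knockout of Rptor, the gene of Raptor, and the 3 wild-type arrays from littermates of the same age. The sheets were freed from the dermis with ammonium thiocyanate, and the series calls the samples of a group biological replicates. The sources used here do not give the Cre driver, the deleted exons or the strain.

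Raptor holds the substrates of mTORC1 by a short motif that S6 kinases and 4E-BPs share. Phosphorylated 4E-BP lets go of the cap-binding protein eIF4E, which then joins the scaffold eIF4G and the helicase eIF4A on the mRNA. S6 kinases phosphorylate eIF4B, which helps eIF4A, mark PDCD4, an inhibitor of eIF4A, for destruction, and restrain eEF2K, the kinase that halts the elongation factor eEF2. All of these steps act on proteins, whereas the arrays measured RNA.

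RefSeq promoter sequences (GRCm38.p6) were given for 7 of the 9 genes, in 12 windows. The 250 bases before each start were searched for CACGTG, the core of the element that MiT/TFE factors bind, because the title of the series names those factors. The motif reads the same on both strands, and 6.02% of all 32851 windows held it. It lay in 3 of the 12 windows, at Eef2k, Eif4e and Eif4g1, and the sites are shown with CACGTG in capitals and 12 bases on either side, all on the plus strand.
Eef2k chr7:120842788-120842817, 31 bases before the start: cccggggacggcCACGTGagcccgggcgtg
Eif4e chr3:138527028-138527057, 228 bases before the start: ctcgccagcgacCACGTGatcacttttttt
Eif4e chr3:138527192-138527221, 64 bases before the start: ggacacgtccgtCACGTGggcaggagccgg
Eif4g1 chr16:20672661-20672690, 54 bases before the start: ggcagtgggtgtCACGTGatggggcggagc
The sites of Eif4e belong to 1 of its 2 annotated starts, and that of Eef2k to 1 of 3. The motif GTAAACA, which FoxO factors bind, was searched on both strands and lay in none of the 12 windows, against 3.17% of all windows. Such a match is a description of letters, and binding was not measured.

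Of the 8 genes, 3 were lower and 1 was higher in Rptor cKO epidermis at an adjusted p under 0.05 (limma, Benjamini-Hochberg adjustment over all genes), while 9.58% of all genes passed that test, 3.63% as higher and 5.95% as lower. With each array's median subtracted, a larger share of the called genes of the whole table was lower, 75.8% against 62.1%. The genes that fell were Pdcd4, Eef2k and Rps6kb2, and Grb10 rose. Eif4ebp1, Eif4ebp2, Eif4e and Eif4b, which act at the mRNA cap, did not pass the test. Eif4b is also a target of S6 kinases, as Pdcd4 and Eef2k are, and read 0.25 higher; whether the arms of the pathway differ was not tested. Against the 95 percentile of each array's negative control probe sets, Eif4ebp2 and Eif4b lay above it on all 6 arrays, Pdcd4 and Eef2k on the 3 wild-type arrays alone, Rps6kb2 and Eif4e on 1 array, and Eif4ebp1 and Grb10 on 0. That percentile was 8.07, 7.79 and 7.68 on Rptor cKO arrays 1 to 3, and 7.61, 7.66 and 7.46 on wild-type arrays 4 to 6. The bar was thus higher in every Rptor cKO array, and these counts do not compare the groups. Folds of the dimmer genes are those of the measured values, which RMA can compress. The 3 Rptor cKO arrays did not overlap the 3 wild-type arrays for 6 of the 8 genes, against 29.0% of all genes. All values are log2 array signals, and all differences are Rptor cKO minus wild type.

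The Rptor RNA read 6.54, 6.82 and 6.73 in the Rptor cKO group (arrays 1 to 3, given in this order throughout). The wild-type arrays 4 to 6 read 6.98, 7.46 and 7.004. The difference of -0.46 (SE 0.15) missed the threshold (limma adjusted p = 0.0990), and a probe set over the whole gene is a weak check of a deletion of unknown exons. By Xist and Y-linked genes, Rptor cKO arrays 1 and 3 came from females, and Rptor cKO array 2 and the 3 wild-type arrays from males. Fits on the male arrays alone therefore set Rptor cKO array 2 against the wild type, with the spread taken from the 3 wild-type arrays and the lone array assumed to vary like them. A call lost there says little, although this setting is 1 of the 13 alternatives counted below.

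Other cells of the sheet were read from marker lists. Krt5 and Krt14, the keratins of basal keratinocytes, lay between 10.37 and 12.38 on all 6 arrays. Of 8 keratinocyte markers 4 were lower, among them Krt1 (-2.07, SE 0.39) and Krt10 (-1.76, SE 0.35) of the suprabasal layers. Of 7 fibroblast markers 4 were higher, and the mean of the list ran from 6.46 to 6.99 in Rptor cKO and from 6.02 to 6.16 in wild type. Of 6 immune markers 4 were lower, with list means from 4.20 to 4.32 against 4.67 to 4.81. Of 6 endothelial markers 1 was higher, and 3 read below the negative control median on all arrays. None of 6 melanocyte, 6 muscle and 2 erythroid markers passed the test in limma, although 2, 5 and 0 of them had an unadjusted p under 0.05. All of these markers read higher in Rptor cKO, against 61.6% of all genes. Their median differences were 0.54, 0.51 and 0.15, and that of all genes was 0.050. Over all genes, 9.58% passed the test. The part of these cells in the differences below was not tested, and in bulk tissue fewer cells of a type and less RNA per cell cannot be told apart.

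**Figure D1:**
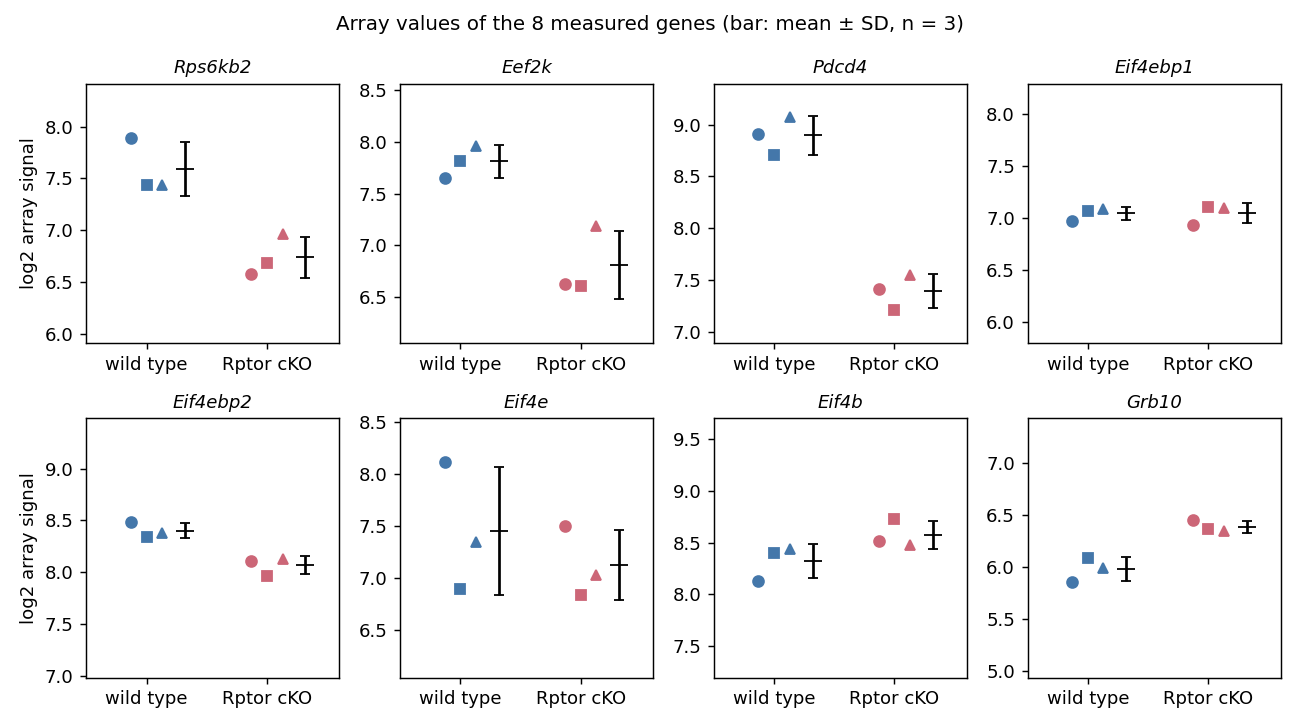
Log2 array signal of the 8 measured genes in wild-type arrays 4, 5 and 6 (blue circle, square, triangle) and Rptor cKO arrays 1, 2 and 3 (red circle, square, triangle), with bars for the mean ± SD, n = 3, and axes of equal span. The groups lie apart for Rps6kb2, Eef2k, Pdcd4, Eif4ebp2, Eif4b and Grb10 and overlap for Eif4ebp1 and Eif4e.

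Pdcd4 encodes a tumour suppressor that binds eIF4A and blocks its helicase activity (chr19:53892231-53937592, GRCm38). It read 7.42, 7.22 and 7.55 in the Rptor cKO arrays and 8.91, 8.71 and 9.08 in the wild-type arrays. Every Rptor cKO array lay more than 1 log2 unit below every wild-type array. The means were 7.39 ± 0.17 and 8.90 ± 0.19 (SD, n = 3 each), a 2.83-fold fall (-1.50, SE 0.13, limma adjusted p = 0.00103). Of all 30142 genes, 1.37% differed by as much or more in either direction, and Pdcd4 was number 56 in the order of the p-values. With any 1 array left out the difference stayed between -1.60 and -1.41 and passed the test. The call was lost without variance moderation (adjusted p = 0.0849, limma adjusted p from 0.000516 over 13 alternatives).

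Eef2k encodes the kinase that slows elongation by phosphorylating eEF2 (chr7:120842642-120907219), and its promoter holds the first site printed above. It read 6.63, 6.61 and 7.19 in the Rptor cKO arrays and 7.65, 7.82 and 7.96 in the wild-type arrays. Rptor cKO array 3 stood nearest the wild type, still below its lowest value. The means of 6.81 ± 0.33 and 7.81 ± 0.16 (SD, n = 3 each) gave a 2.00-fold fall (-0.999, SE 0.17, limma adjusted p = 0.00978). Without Rptor cKO array 2 the difference was -0.90 and missed the threshold (limma adjusted p = 0.0522), as it did without variance moderation (adjusted p = 0.142, range from 0.00186 over 13 alternatives).

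Rps6kb2 encodes S6 kinase 2, a direct substrate of mTORC1 (chr19:4156792-4163383). It read 6.58, 6.68 and 6.96 in the Rptor cKO arrays and 7.89, 7.43 and 7.44 in the wild-type arrays. Wild-type array 4 stood above the other two of its group, and the groups did not overlap. The means of 6.74 ± 0.20 and 7.59 ± 0.26 (SD, n = 3 each) gave a 1.80-fold fall (-0.85, SE 0.15, limma adjusted p = 0.0130). The call was lost without Rptor cKO array 2 (-0.82, limma adjusted p = 0.0658). It was also lost with the male arrays alone (-0.91, limma adjusted p = 0.0907) and without variance moderation (adjusted p = 0.150, range from 0.0113 over 13 alternatives). S6 kinase 1, the product of Rps6kb1, was not analysed here.

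At the cap, Eif4ebp1 and Eif4ebp2 encode the repressors that hold eIF4E. Eif4ebp1 (chr8:27260327-27275656) read 6.93, 7.10 and 7.10 in the Rptor cKO arrays and 6.97, 7.07 and 7.09 in the wild-type arrays. The groups overlapped, and the mean was 7.04 in both, with SDs of 0.096 and 0.063 (n = 3). The 95% interval of the difference ran from -0.21 to 0.21, which leaves room for a change of that size in either direction (limma adjusted p = 1).

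Eif4ebp2 (chr10:61428491-61452790) read 8.11, 7.97 and 8.13 in the Rptor cKO arrays and 8.48, 8.34 and 8.38 in the wild-type arrays. All 3 Rptor cKO arrays lay below all wild-type arrays, by a small step. The difference of -0.33 (SE 0.092, unadjusted 95% interval -0.54 to -0.12) missed the threshold (limma adjusted p = 0.0614). It passed with each array's median subtracted (-0.40, limma adjusted p = 0.0389, range 0.0389 to 0.224 over 13 alternatives). Whether the change of Eif4ebp2 differs from that of Eif4ebp1 was not tested. The probe set that holds Eif4ebp3 names another gene as well and was not used.

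Eif4e (chr3:138526191-138559696), whose product binds the mRNA cap, read 7.50, 6.84 and 7.03 in the Rptor cKO arrays and 8.12, 6.89 and 7.34 in the wild-type arrays. Its arrays spread more widely than those of any other of the 8 genes, with an SD of 0.34 in Rptor cKO and 0.62 in wild type (n = 3). The difference of -0.33 (SE 0.30) had a 95% interval from -1.005 to 0.35 (limma adjusted p = 0.565). Wild-type array 4 set its size, since without it the difference was 0.0048 (limma adjusted p = 0.994, range 0.235 to 0.994 over 13 alternatives). A change of the size seen for Eef2k would lie at the edge of that interval.

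Eif4b (chr15:102073773-102097173), whose product helps eIF4A unwind mRNA, read 8.51, 8.73 and 8.47 in the Rptor cKO arrays and 8.13, 8.40 and 8.44 in the wild-type arrays. The lowest Rptor cKO array lay just above the highest wild-type array. The difference of 0.25 (SE 0.12, 95% interval -0.021 to 0.52) did not pass the test (limma adjusted p = 0.253).

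Grb10 encodes an adaptor that mTORC1 phosphorylates and that dampens the insulin and IGF1 receptors (chr11:11930499-12037428). It read 6.45, 6.36 and 6.34 in the Rptor cKO arrays and 5.86, 6.08 and 5.99 in the wild-type arrays. The Rptor cKO arrays lay close together and above the wild type. The means of 6.39 ± 0.058 and 5.98 ± 0.11 (SD, n = 3 each) gave a 1.33-fold rise (0.41, SE 0.096, limma adjusted p = 0.0337). The call was lost in 9 of 13 alternatives, among them each fit that left out a Rptor cKO array or wild-type array 4 or 6, and the fit with array medians subtracted (limma adjusted p 0.0315 to 0.302). The difference stayed between 0.34 and 0.46 throughout. The other adaptors of its family, Grb7 (-0.67, SE 0.23) and Grb14 (-0.15, SE 0.13), did not pass the test.

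**Figure D2:**
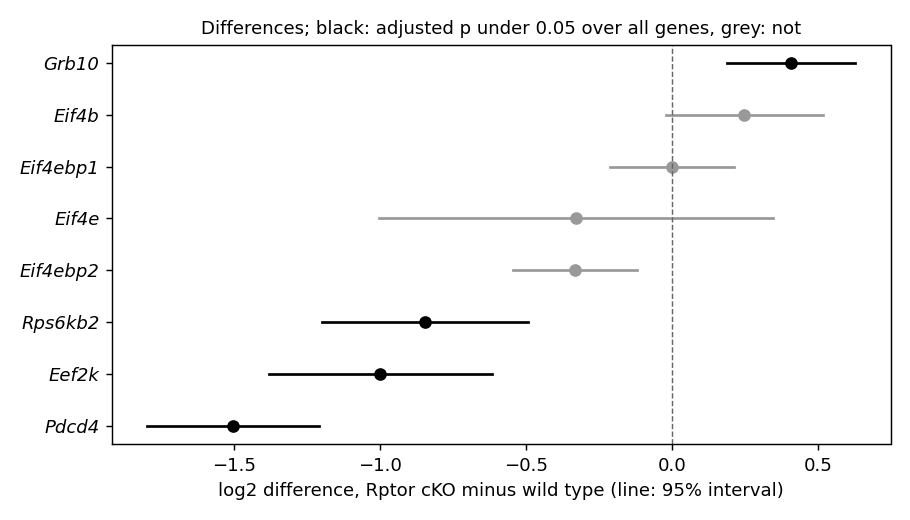
Log2 difference, Rptor cKO minus wild type, of the 8 genes with unadjusted 95% intervals; black marks an adjusted p under 0.05 over all genes and grey the rest. Pdcd4, Eef2k and Rps6kb2 lie at -1.50, -0.999 and -0.85, Grb10 at 0.41, and the 4 genes that act at the cap between -0.33 and 0.25.

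The Rptor cKO arrays were not equally far from the wild type. Rptor cKO array 3 lay nearest the wild-type mean for 7 of the 8 genes, all but Eif4e. The share of all genes with array 3 nearest was not counted. The step to the next array was small for Eif4ebp1 (0.054 against 0.057), Eif4ebp2 (-0.275 against -0.291) and Grb10 (0.366 against 0.386). For Eef2k the distances from that mean were -1.18, -1.20 and -0.62 in arrays 1 to 3, and for Rps6kb2 they were -1.01, -0.91 and -0.63. For Krt10 they were -2.12, -2.37 and -0.80, so array 3 was nearest here too. For Rptor itself they were -0.61, -0.33 and -0.42, so array 2 was nearest. Pdcd4 was more even, at -1.48, -1.68 and -1.35 in arrays 1 to 3. The part of the loss of suprabasal keratins in these values was not tested.

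The patterns closest to Pdcd4 and Grb10, the called genes with the smallest p in either direction, were sought among 96 other genes of the translation and mTORC1 lists. Pdcd4 was followed by Atg13, of the autophagy starting complex, at a Pearson correlation of 0.966 over the 6 arrays, Eif4ebp2 at 0.957 and Eef2k at 0.95. Within the groups, with group means removed, those correlations were 0.46, 0.613 and 0.62. Grb10 was followed by Deptor, an mTOR inhibitor, at 0.968, Gspt2 at 0.96 and Pabpc4 at 0.956, and within the groups at 0.833, 0.795 and 0.505. The 6 arrays share their 2 groups, so the larger values restate the group difference.

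The wider machinery was read from 10 lists written for this comparison. In these lists of translation and mTORC1 genes, 97 genes were measured, of which 4 were higher, 7 lower and 86 did not pass the test. Without the 8 genes above, 3 of 89 were higher and 4 lower, 7.87% against 9.58% of all genes. The 9.58%, here and for the lists below, counts the dim genes. With those left out the share of all genes was larger (1118 higher and 1881 lower of 20570), so a list share somewhat above 9.58% need not exceed it. The median difference of the 97 was -0.017 and that of all genes 0.050. The lower genes numbered 2 without Rptor cKO array 2 and 4 without Rptor cKO array 1, and the higher genes 2 without wild-type array 4 or 6.

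**Figure D3:**
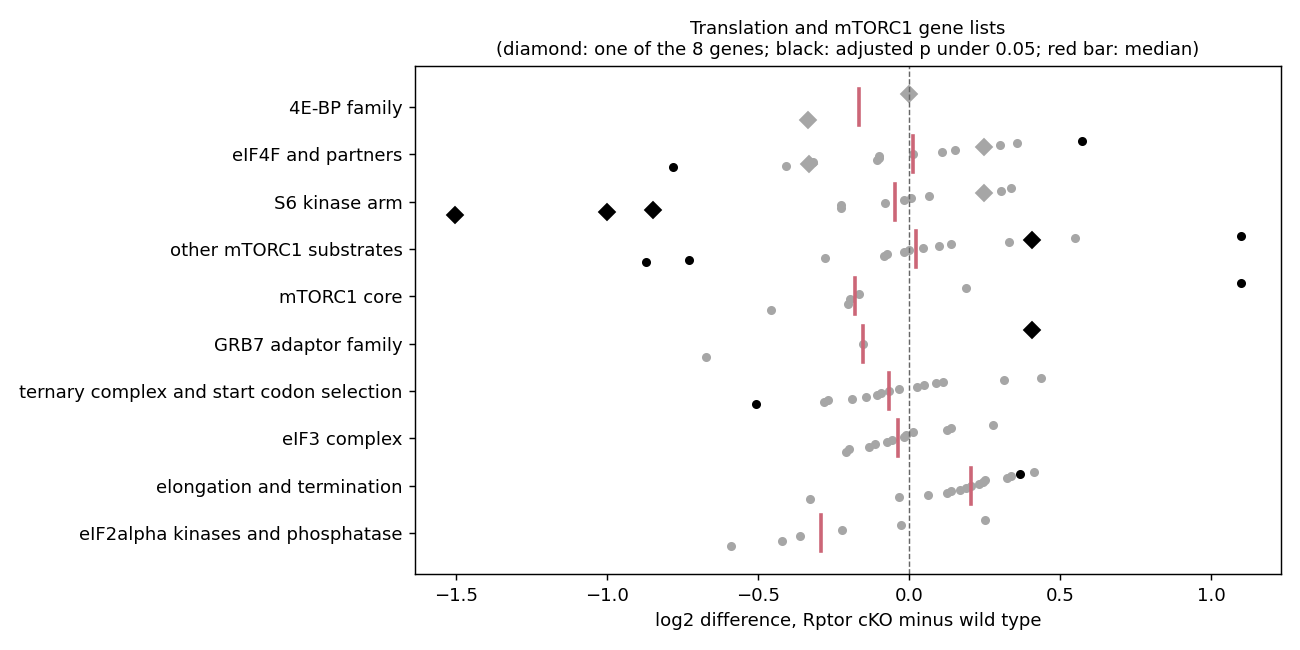
Log2 difference, Rptor cKO minus wild type, of each measured gene in 10 lists; diamonds are the 8 genes described, black marks an adjusted p under 0.05 and the red bar is the list median. The 3 diamonds from -1.50 to -0.85 stand at the low end of the S6 kinase arm, where the diamond of Eif4b lies at 0.25. The 12 eIF3 genes lie between -0.21 and 0.28.

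In the S6 kinase arm, 3 of 12 genes fell and none rose, 25% against 9.58% of all genes. The 3 are the genes named above, so this share restates their calls. Eif4b is in this list too and read 0.25 higher without passing the test. Btrc, of the ligase that destroys phosphorylated PDCD4, read 0.31 higher (SE 0.10, limma adjusted p = 0.114) and did not pass. Fbxw11, of the same list, differed by -0.077 (SE 0.10, limma adjusted p = 0.715). Poldip3, an S6 kinase partner at spliced mRNA, differed by 0.0076 (SE 0.11). The list ran from -1.50 for Pdcd4 to 0.34 for Cct2 (SE 0.13, limma adjusted p = 0.163), with a median of -0.047.

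Among 15 genes of eIF4F and its partners, 1 rose and 1 fell, 13.3% against 9.58% of all genes with the dim ones counted. The list median was 0.013. Pabpc4, a poly(A)-binding protein, read 6.74, 6.69 and 6.61 in the Rptor cKO arrays and 6.11, 6.17 and 6.05 in the wild-type arrays, a rise of 0.57 (SE 0.088, limma adjusted p = 0.00750). Mknk2, a kinase that phosphorylates eIF4E, fell by 0.78 (SE 0.18, limma adjusted p = 0.0317), a call that 7 of 13 alternatives lost. The helicase gene Eif4a1, whose product PDCD4 blocks, differed by 0.15 (SE 0.11, limma adjusted p = 0.463). The probe set of Eif4a2 names other genes too and was not used.

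Among 14 other mTORC1 substrates and regulators, 2 rose and 2 fell, 28.6% against 9.58% of all genes. Grb10, counted here, is also one of the 8 genes described above. Deptor and Grb10 rose, by 1.10 and 0.41, and Atg13 and Ulk1, which start autophagy, fell by 0.87 (SE 0.12) and 0.73 (SE 0.15). The call of Ulk1 was lost in 6 of 13 alternatives and that of Atg13 in 1. Larp1, an mTORC1 substrate that binds the mRNAs of ribosomal proteins, read 8.83, 8.998 and 8.87 in the Rptor cKO arrays and 8.47, 8.58 and 8.66 in the wild-type arrays. Its difference of 0.33 (SE 0.096) missed the threshold (limma adjusted p = 0.0692) and passed with quantile normalization (0.42). In the mTORC1 core, Deptor was again the single call of 6 genes, 16.7% against 9.58% of all genes. Mtor (-0.19, SE 0.091) and Mlst8 (-0.16, SE 0.094) did not pass.

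Of 15 elongation and termination genes 1 rose and none fell, 6.67% against 9.58% of all genes. The median was 0.21 and 13 of 15 lay above 0, against 61.6% of all genes, whose median was 0.050 as deposited and -0.022 with array medians subtracted. The one was Gspt2, a release factor (0.37, SE 0.082, limma adjusted p = 0.0273), and 10 of 13 alternatives lost it. Its wild-type values of 3.69, 3.71 and 3.73 lay under the negative control median of their arrays. So did its value of 4.09 in Rptor cKO array 1, where that median was 4.11. Eef2, the target of eEF2K, read 10.60, 10.68 and 10.69 in the Rptor cKO arrays and 10.02, 10.41 and 10.30 in the wild-type arrays. The groups did not overlap, yet the difference of 0.41 (SE 0.12) missed the threshold (limma adjusted p = 0.0630). The differences of Eef2 and Eef2k had opposite signs, and that of Eef2k alone passed the test.

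For the ternary complex that brings the first tRNA, 1 of 15 genes fell, also 6.67%, Eif2b4 of the exchange factor eIF2B (-0.51, SE 0.12, limma adjusted p = 0.0379), and 8 of 13 alternatives lost the call. None of 12 eIF3 genes passed in limma, and 0 had an unadjusted p under 0.05. The smallest p among them was that of Eif3b (-0.21, SE 0.10, limma adjusted p = 0.283). None of the 6 kinase and phosphatase genes of eIF2alpha passed, while 4 had an unadjusted p under 0.05, the smallest being that of Eif2ak1, the heme-sensing kinase (-0.36, SE 0.10, limma adjusted p = 0.0638).

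**Figure D4:**
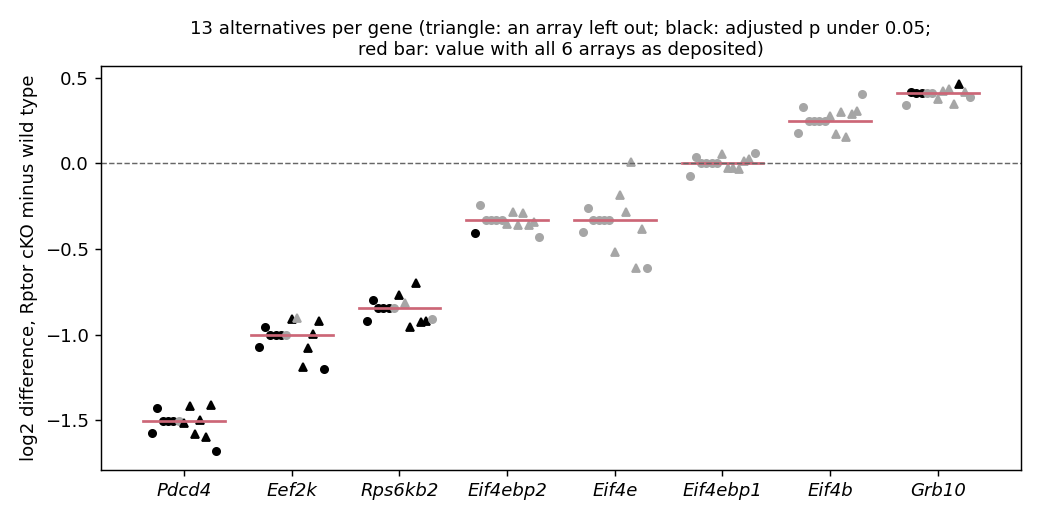
Log2 difference of the 8 genes under 13 alternatives each (circles for other processing, triangles for 1 array left out); black marks an adjusted p under 0.05, grey the rest, and the red bar is the value with all 6 arrays as deposited. Pdcd4 stays between -1.68 and -1.41, Grb10 stays between 0.34 and 0.46 with most points grey, and Eif4e spreads from -0.61 to 0.0048.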

How the data were processed

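Biotin-labelled RNA of 6 epidermal sheets was measured on expression arrays. The deposited values are on a log2 scale, 1 per probe set and array. RMA, Partek and mm10 are named in the submitters' processing notes, without versions. RMA makes arrays more alike in distribution, which can hide a general change of RNA per cell. It also compresses changes of dim probe sets. The deposited arrays were still not fully alike, as the next ranges show. Values ran from 1.34 to 14.04, and array medians from 4.08 to 4.22. The 5222 negative control probe sets had medians from 3.81 to 4.11 and 95 percentiles from 7.46 to 8.07, so no sharp limit of detection exists; all 8 genes lay above the median on all arrays, and 2 of them above the 95 percentile on all arrays. The sources used here give neither scan dates nor slides, so batches were not tested.

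The table has 72688 probe sets. Besides 6732 controls, which were left out, 30604 had 1 gene symbol, 2146 had several and 33206 had none here. Symbols were updated by Entrez ID for 827 probe sets, and gene coordinates are RefSeq's on GRCm38. Differences were fitted with limma 3.58.1 (lmFit, eBayes) in R 4.3.3 over 30142 genes, two-sided, group as sole term, no filter, Benjamini-Hochberg threshold 0.05, with 4.3 prior degrees of freedom. SE is moderated, and 95% intervals are unadjusted. A permutation test of 3 against 3 arrays could not go below p = 0.1 and was not used. The number of arrays limits the precision. The labels do not say that embryos came from separate litters, so p-values measure the spread between these samples.

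The genes and lists were chosen with earlier results of these data known. Named are the 9 genes, Rptor, up to 2 genes per list and direction with the smallest p among those past the threshold (or the 1 with the smallest p), and set partners and paralogs. Other genes (Btrc, Fbxw11, Poldip3, Cct2, Grb7, Grb14, Mtor, Mlst8, the marker genes and Eif2s3x) were named outside this rule, after their values were seen. The fit was tested on simulated data with the means and spreads of this comparison, where 200 of 30142 genes were given a change. It found 23.3% of the genes given a log2 change of 0.5, 82.7% of those given 1 and 97.3% of those given 2. In the data themselves 2887 genes were called, so the adjustment acts at another level there. These shares therefore do not give the power of the comparison. The 13 alternatives were array medians subtracted, quantile normalization, 9572 dim genes left out, the mean of a gene's probe sets, eBayes with trend and robust, no variance moderation, each array left out, and the male arrays alone. Annotation and plots were made in Python 3.11.15 (pandas 2.3.3, matplotlib 3.10.9).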

Additional observations from a re-analysis of the deposited data

How the results depend on the processing

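No paired analysis was possible because the groups share no replicate numbers. With each array's median subtracted, 0 of the 8 genes were called higher, 2 genes of the 10 lists and 585 of all genes. In that setting 4 of the 8 genes were called lower, 8 genes of the lists and 1828 of all genes. With trend and robust moderation 0 of the 8 were higher and 3 lower. Without variance moderation 0 of the 8 were higher and 0 lower (1 and 4 at an unadjusted p under 0.05), as were 0 and 0 of the listed genes, and 6 and 2 of all genes. With the male arrays alone, where Rptor cKO array 2 is the sole array of its group and the spread comes from the wild type, 0 of the 8 were higher, 0 listed genes were higher and 3 lower, and 242 of all genes were higher and 625 lower. Leaving out 1 array gave 0 to 1 of the 8 higher and 1 to 3 lower, 2 to 4 listed genes higher and 2 to 6 lower, and 274 to 850 of all genes higher and 612 to 1631 lower. The lowest of the 8 genes' lower counts, 1, and both lowest counts of all genes came without Rptor cKO array 2. In every setting where 0 of the 8 genes were called higher by limma, 1 had an unadjusted p under 0.05. The sign of Eif4ebp1 turned with array medians subtracted (-0.072) and ran from -0.036 to 0.056 with 1 array left out, and that of Eif4e ran from -0.61 to 0.0048. Of 104 values of the 8 genes, 83 kept direction and side of the threshold, 15 lost the call, 1 gained it and 5 changed sign. The cause was not tested. The 83 include settings that could not change a difference, so they overstate how far the values were put to a test.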

Other observations

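Eif2s3x, the X-linked gene of the gamma subunit of eIF2, read 7.84 and 7.62 in the female Rptor cKO arrays 1 and 3, 7.16 in the male Rptor cKO array 2, and 7.04, 7.04 and 7.22 in the male wild-type arrays. Its difference of 0.44 (SE 0.17) did not pass the test (limma adjusted p = 0.156).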
